A study of Mus musculus with 6 samples.

Results

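The proteins of the small ribosomal subunit, with ribosomal RNA of that subunit, form the particle that binds messenger RNA and decodes it. The genes described are 29 of the 22969 in the table: 28 that encode proteins of this subunit and Rps27l, a paralog of Rps27. They were chosen by gene name, and some genes of the subunit are not among them. RNA of about 500 hematopoietic stem cells per library, sorted from adult C57BL/6 bone marrow as lineage-negative, Sca-1+, c-Kit+, CD150+ and CD48-, was sequenced after Smart-seq2 amplification. There were 3 libraries labelled Rbfox2-deleted (Vav1-cre; Rbfox2-fl/fl) and 3 control libraries (Rbfox2-fl/fl), so that both groups carry the floxed Rbfox2 alleles and the controls lack Cre. Vav1-cre recombines in blood cells in general, so the deletion is not limited to the sorted cells. Controls 1 and 3 nearly coincided in their counts and were summed as 1 sample, which leaves 3 samples labelled Rbfox2-deleted and 2 control samples.

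Ribosomal protein genes are among the most highly expressed genes of most cells, and their products assemble with ribosomal RNA in the nucleolus in fixed proportions. Their messenger RNAs mostly begin with a run of pyrimidines, the terminal oligopyrimidine tract, through which mTORC1 and the RNA-binding protein LARP1 control their translation. Blood formation is known to be sensitive to them: inherited loss of a copy of RPS19, RPS26, RPS10, RPS7 or related genes causes Diamond-Blackfan anaemia in humans, and blood stem cells are known to keep protein synthesis low.

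The sequence around the start of transcription is shown for 8 of the genes whose values are given in full below. A pyrimidine run that begins the message is the feature through which translation of most such messages is controlled. Each runs 5′ to 3′ from 40 bases before the annotated start to 30 bases from it, from RefSeq on GRCm38.p6. Capitals mark the longest run of C and T, or the first of equally long ones, that begins with C and touches the 20 bases on either side of the start.
Rps9, chr7:3704001-3704070, plus strand: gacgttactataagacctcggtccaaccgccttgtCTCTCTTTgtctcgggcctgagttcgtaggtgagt
Rps15a, chr7:118116118-118116187, minus strand: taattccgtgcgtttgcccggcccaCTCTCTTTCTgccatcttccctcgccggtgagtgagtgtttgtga
Rps7, chr12:28635924-28635993, minus strand: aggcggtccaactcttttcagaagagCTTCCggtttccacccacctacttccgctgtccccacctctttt
Rps10, chr17:27635215-27635284, minus strand: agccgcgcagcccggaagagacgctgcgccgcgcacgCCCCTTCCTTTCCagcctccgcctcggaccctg
Rps6, chr4:86857338-86857407, minus strand: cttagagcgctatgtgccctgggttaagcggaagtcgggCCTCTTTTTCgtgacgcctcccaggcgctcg
Rps25, chr9:44407674-44407743, plus strand: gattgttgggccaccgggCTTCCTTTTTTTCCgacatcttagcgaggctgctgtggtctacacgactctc
Rps27, chr3:90213619-90213688, minus strand: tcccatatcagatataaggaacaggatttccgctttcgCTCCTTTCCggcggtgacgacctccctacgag
Rps27l, chr9:66946046-66946115, plus strand: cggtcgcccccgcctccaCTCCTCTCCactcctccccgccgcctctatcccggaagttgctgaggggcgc
The runs in capitals were 5 to 14 bases long, with first bases from position -22 to -1 relative to the annotated start. Those of Rps27l, Rps25, Rps15a and Rps7 end before that start, so by this RefSeq annotation they lie outside the message. The gene spans of Rps25 and Rps15a given below, from another annotation, begin further upstream and include them. In Rps7 a run as long as the marked one lies after the start. Whether any marked run acts as the terminal oligopyrimidine tract was not tested. Promoter sequences were matched for 25 of the 29 genes. A C followed by at least 6 further pyrimidines, beginning within 20 bases of the start on the sense strand, was present in 15 of the 25 genes (60%), against 24% of 27025 genes. The sequence CCGGAAG, the core bound by ETS-family factors, searched on both strands from 250 bases before to 50 after the start, was present in 11 of 25 (44%), against 9.93% of all genes. The sequence AAGATGG, which resembles the site of the factor YY1, whose first letters can also be the last of the ETS core, and which was searched on both strands, was present in 6 of 25 (24%), against 7.28%.

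The genes lie on 14 chromosomes of mm10 and all are annotated as protein coding. Of the 29, 8 hold small nucleolar RNA genes in their span (14 in all), among them Rpsa, Rps3, Rps12 and Rps20. For 7, a gene on the opposite strand overlaps, such as Ndst1 with Rps14 and Trappc4 with Rps25, and the library method keeps no strand, so their counts are uncertain. Processed copies make others uncertain: 102 pseudogenes named after 21 of the genes are annotated. Of these, 9 are among the genes counted, named after Rps12 or Rps19. They held 72404 counts, or 1.25% of the counts of the 29 genes. Copies under other names, such as Rps27rt, are not in these numbers, and how reads shared with uncounted copies were handled is not known.

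The libraries differed in ways that the labels do not explain. Libraries labelled Rbfox2-deleted held 23474895 to 35650284 counts and 14154 to 15972 detected genes, and controls 47895459 to 55151484 counts and 16675 to 17087 detected genes. Rbfox2 had 2, 87 and 10 counts in libraries labelled Rbfox2-deleted 1, 2 and 3 and 238, 11 and 250 in controls 1, 2 and 3. By these whole-gene counts the library labelled Rbfox2-deleted 2 and control 2 went against their labels. In plain CPM that library stood at 2.44, above control 2 (0.213) and below controls 1 and 3 (4.97 and 4.53). Counts of the floxed part alone were not at hand, so the deletion itself was not tested. Xist and Eif2s3y counts showed female mice for libraries labelled Rbfox2-deleted 1 and 3 and male mice for the others. The genes of the sort gate (Ly6a, Kit and Slamf1) were detected in every library and summed to 446 to 689 plain CPM in libraries labelled Rbfox2-deleted, against 778 to 899 in controls. Cd48 was at 0 counts in every library except the one labelled Rbfox2-deleted 3.

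Whether small subunit genes differ in the stem cells labelled Rbfox2-deleted was the first comparison. CPM values below are read counts scaled to a common library total and then by TMM factors, which equalise the bulk of genes between samples, and a log2 fold change is the group labelled Rbfox2-deleted minus control. All 29 genes passed the filter on low counts and had a log2 fold change below 0, where 46.5% of 12350 genes tested did. The median of the 29 was -0.67, or 63.0% of control, against 0.11 for all genes, and it changed sign to 0.27 when the counts were corrected for transcript length (all genes 0.49). No gene passed the threshold of 0.05 in edgeR's quasi-likelihood test adjusted over all genes (0 of 29 and 0% of all genes). At an unadjusted p under 0.05, 17 of 29 genes lay on the lower side and 0 on the other, beside 4.56% of all genes on the lower side and 9.89% on either. That count was 0 with any length or GC correction. Of the 3 libraries labelled Rbfox2-deleted, 2 were from female mice, while the controls were from male mice. With sex as a covariate, the group difference therefore rested on the male library labelled Rbfox2-deleted 2 alone. The median of the 29 was then -0.74, and this fit cannot adjust the result of all 5 samples for sex. DESeq2 called 0 of the 29 and 1.58% of all genes at an adjusted p under 0.05, and 5 of 29 were lower at an unadjusted p under 0.05, against 3.41%.

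In 24 of the 29 genes every sample labelled Rbfox2-deleted lay below every control sample, as in 17.2% of all genes. The 5 genes that overlapped were Rps12, Rps13, Rps14, Rps18 and Rps25. In plain CPM, without TMM factors, the number without overlap was 23. There Rps3a1 and Rps6 overlapped and Rps18 did not. Relative to the control mean, the median of the 29 genes on the log2 scale was -0.55, -0.73 and -0.91 in libraries labelled Rbfox2-deleted 1, 2 and 3, and 26, 29 and 29 genes lay below it. Control 2 and the summed controls 1 and 3 differed by a median of -0.07, with single genes from -0.41 to 0.85. The median biological coefficient of variation, a measure of the spread of replicates, was 31.7% for these genes, against 97.7% for all genes tested. The genes were not matched for expression level, so a narrower spread particular to this group is not shown. In plain CPM the 29 genes together took 1.80%, 1.86% and 1.71% of all counts in libraries labelled Rbfox2-deleted 1, 2 and 3, against 2.68%, 2.62% and 2.70% in controls 1, 2 and 3 (1.79% ± 0.0743, SD, n = 3, against 2.66% ± 0.051, SD, n = 2). These shares did not overlap between groups. In sorted bulk cells, fewer cells of a type and less RNA per cell cannot be told apart.

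**Figure D1:**
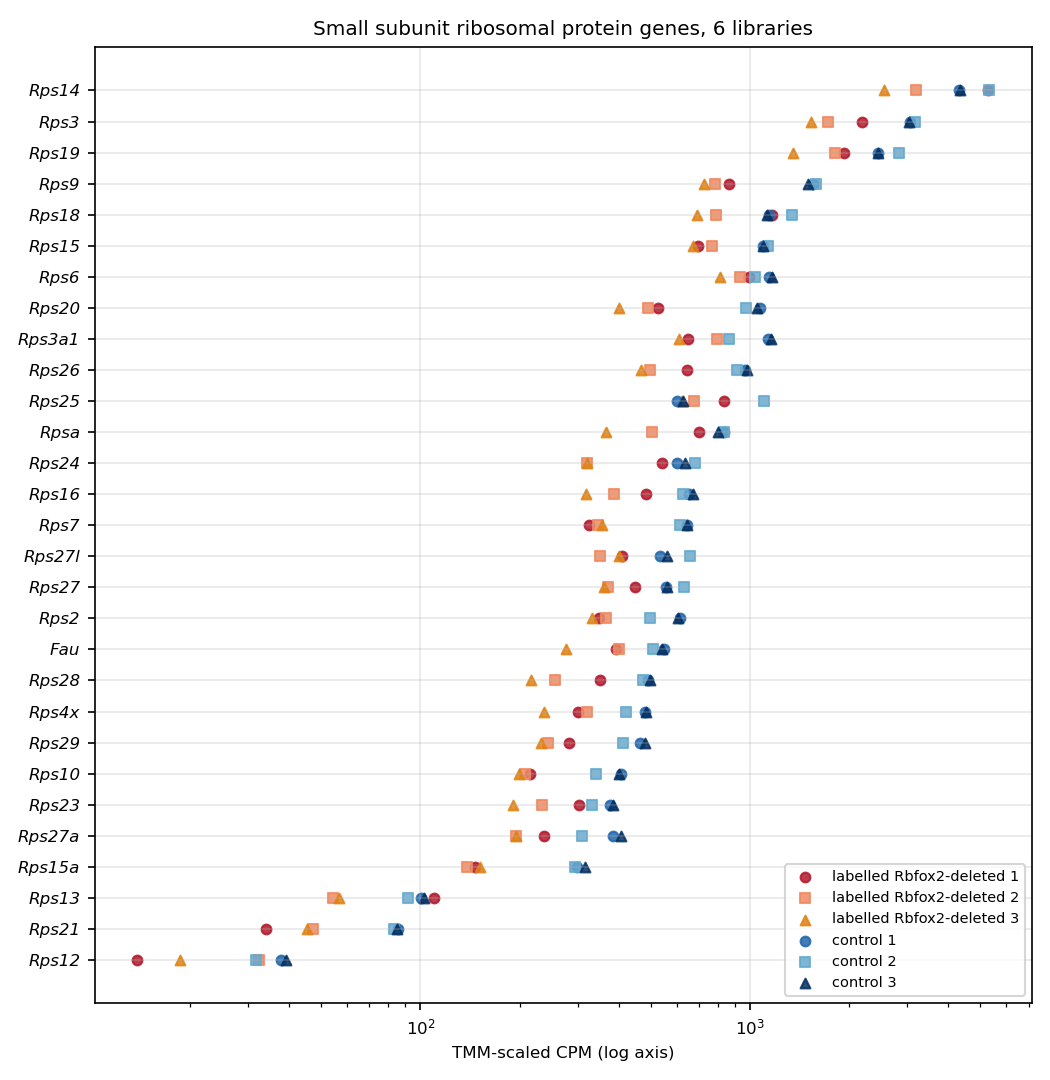
TMM-scaled CPM of each of the 29 genes (log axis) in 3 libraries labelled Rbfox2-deleted (red and orange) and 3 controls (blue), 1 point per library, with genes ordered by their control mean. In 24 genes the red and orange points all lie left of the blue ones on this scale, while with a length correction only 8 of 29 fold changes stay below 0. Rps14, Rps13, Rps18, Rps25 and Rps12 overlap.

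Rps9 lies with Rps2 and Rps3 at the channel through which messenger RNA enters the subunit. Rps9 (ENSMUSG00000006333, chromosome 7, 3703993 to 3706897, plus strand) had 864, 781 and 726 CPM in libraries labelled Rbfox2-deleted 1, 2 and 3, against 1552, 1591 and 1504 CPM in controls 1, 2 and 3. The groups were apart by more than their spread, at 790.2 ± 69.2 CPM (SD, n = 3), against 1559 ± 46.1 CPM (SD, n = 2) (log2 fold change -0.98, SE 0.211, -0.16 when corrected for length, edgeR adjusted p = 0.387). Rps3, which also takes part in DNA repair, had a log2 fold change of -0.78 (-0.59 when corrected for length) and Rps2 of -0.67 (0.00), and neither overlapped between groups. None of these channel genes passed the test over all genes (edgeR adjusted p from 0.387 to 0.435).

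The head of the subunit is the part that swivels during translocation. Its proteins, Rps3 among them, ranged in log2 fold change from -1.11 for Rps20 to -0.27 for Rps25. With the length correction they ranged from -0.59 for Rps3 to 0.71 for Rps18. Rps20 (ENSMUSG00000028234, chromosome 4, 3831334 to 3835665, minus strand), a head protein on the solvent side, had 526, 489 and 399.8 CPM in libraries labelled Rbfox2-deleted 1, 2 and 3, against 1069, 970.1 and 1052 CPM in controls 1, 2 and 3. The groups were far apart (log2 fold change -1.11, SE 0.23, -0.43 when corrected for length, edgeR adjusted p = 0.387). Rps10 (ENSMUSG00000052146, chromosome 17, 27630418 to 27636669, minus strand), a head protein that is ubiquitinated when ribosomes stall, had 215, 208 and 199.6 CPM in libraries labelled Rbfox2-deleted 1, 2 and 3, against 407, 340.0 and 399 CPM in controls 1, 2 and 3. The groups did not overlap and the samples labelled Rbfox2-deleted differed little among themselves (log2 fold change -0.84, SE 0.24, -0.01 when corrected for length, edgeR adjusted p = 0.387). Rps29 (ENSMUSG00000034892, chromosome 12, 69157722 to 69159186, minus strand), a small zinc-binding head protein, had 281, 243 and 232 CPM in libraries labelled Rbfox2-deleted 1, 2 and 3, against 465, 412 and 479.5 CPM in controls 1, 2 and 3. It too was separated (log2 fold change -0.81, SE 0.238, 0.51 when corrected for length, edgeR adjusted p = 0.387). Of other head proteins, Rps19, the gene most often mutated in Diamond-Blackfan anaemia, had a log2 fold change of -0.64 (0.33 when corrected for length). That of Rps28 was -0.82 (0.48), that of Rps16 -0.70 (0.01), that of Rps15 -0.65 (0.57) and that of Rps18 -0.49 (0.71). Rps12 and Rps25, also of the head, are described further on.

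Rps15a, Rps7 and Rps6 belong to the body and platform of the subunit. Rps15a (ENSMUSG00000008683, chromosome 7, 118104372 to 118116188, minus strand), which binds the core of the ribosomal RNA, had 147, 138 and 151 CPM in libraries labelled Rbfox2-deleted 1, 2 and 3, against 299, 295 and 315 CPM in controls 1, 2 and 3. The fitted level in the group labelled Rbfox2-deleted was 48.3% of control and its samples lay close together (log2 fold change -1.05, SE 0.248, -0.22 when corrected for length, edgeR adjusted p = 0.387). Rps7 (ENSMUSG00000061477, chromosome 12, 28630854 to 28635953, minus strand), known to bind the p53 regulator MDM2 when free, had 324, 345 and 356 CPM in libraries labelled Rbfox2-deleted 1, 2 and 3, against 645, 615 and 642 CPM in controls 1, 2 and 3. The gap between groups was again larger than the spread within them (log2 fold change -0.88, SE 0.215, -0.13 when corrected for length, edgeR adjusted p = 0.387). Rps6 (ENSMUSG00000028495, chromosome 4, 86854660 to 86857412, minus strand), the protein phosphorylated by S6 kinase, had 993, 935 and 810.3 CPM in libraries labelled Rbfox2-deleted 1, 2 and 3, against 1139, 1038 and 1169.6 CPM in controls 1, 2 and 3. Its groups were apart by a small margin only, with 992.8 CPM as the highest value labelled Rbfox2-deleted and 1038 CPM as the lowest control (log2 fold change -0.27, SE 0.22, 0.59 when corrected for length, edgeR adjusted p = 0.831).

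The other body and platform genes differed in their spread. Rps26, at the exit of the messenger RNA channel and mutated in Diamond-Blackfan anaemia, had 645, 497 and 467 CPM in libraries labelled Rbfox2-deleted 1, 2 and 3, against 965, 915 and 981 CPM in controls 1, 2 and 3 (log2 fold change -0.82, SE 0.241, 0.25 when corrected for length, edgeR adjusted p = 0.387). Rps21 had 33.9, 47.1 and 45.2 CPM in libraries labelled Rbfox2-deleted 1, 2 and 3, against 85.7, 83.0 and 84.9 CPM in controls 1, 2 and 3. This separation had a wide error (log2 fold change -1.0, SE 0.442, 0.30 when corrected for length, edgeR adjusted p = 0.542). Rps13 overlapped, with 110.1, 54.2 and 56.6 CPM in libraries labelled Rbfox2-deleted 1, 2 and 3, against 100.5, 91.5 and 103 CPM in controls 1, 2 and 3. Library 1 labelled Rbfox2-deleted was the highest of all for Rps13 and the other libraries of that label were the lowest (log2 fold change -0.39, 0.79 when corrected for length). Rps24, also mutated in Diamond-Blackfan anaemia, had a log2 fold change of -0.72 (-0.34 when corrected for length), Rpsa, also known as the laminin receptor, -0.66 (-0.43), and the X-linked Rps4x -0.66 (0.10). Rps3a1 had -0.56 (0.17) and Rps23, a protein of the decoding centre, -0.55 (0.27). These 5 genes did not overlap between groups with TMM scaling, while Rps3a1 did in plain CPM.

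Rps14 and Rps25 showed how far single libraries moved a value. Rps14 (ENSMUSG00000024608, chromosome 18, 60747098 to 60778546, plus strand), a platform protein whose loss is linked to a human myelodysplastic syndrome, had 5269.7, 3191 and 2550.3 CPM in libraries labelled Rbfox2-deleted 1, 2 and 3, against 4319, 5326 and 4349.7 CPM in controls 1, 2 and 3. Library 1 labelled Rbfox2-deleted lay among the controls, and the log2 fold change of -0.40 (SE 0.35, 0.60 when corrected for length, edgeR adjusted p = 0.855) was -0.77 without it, -0.20 without library 3 labelled Rbfox2-deleted and -0.24 without control 2. Rps25 (ENSMUSG00000009927, chromosome 9, 44407139 to 44410427, plus strand), a head protein needed by some viral internal ribosome entry sites, had 834, 678 and 623 CPM in libraries labelled Rbfox2-deleted 1, 2 and 3, against 602, 1105 and 627 CPM in controls 1, 2 and 3. Control 2 stood above all others and controls 1 and 3 below the middle value labelled Rbfox2-deleted, so that the log2 fold change of -0.27 (SE 0.316, 0.29 when corrected for length, edgeR adjusted p = 0.903) turned to 0.22 without control 2. Without library 1 labelled Rbfox2-deleted, 25 of 29 genes were lower at an unadjusted p under 0.05 in edgeR's test, beside 11.9% of all genes. The number was 5 without library 2 labelled Rbfox2-deleted (3.8% of all genes), 8 without library 3 (4.91%), 6 without control 2 (2.49%) and 5 without controls 1 and 3 (2.69%). It was 23 when all 6 libraries entered as separate samples (7.1%).

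Rps27a and Fau encode precursors fused to a ubiquitin-like part. Rps27a (ENSMUSG00000020460, chromosome 11, 29545846 to 29548109, minus strand), made as a fusion with ubiquitin, had 238, 195 and 195 CPM in libraries labelled Rbfox2-deleted 1, 2 and 3, against 383, 309 and 405 CPM in controls 1, 2 and 3. The groups did not overlap (log2 fold change -0.75, SE 0.262, 0.19 when corrected for length, edgeR adjusted p = 0.444). Fau (ENSMUSG00000038274, chromosome 19, 6057844 to 6059524, plus strand), made as a fusion with the ubiquitin-like protein FUBI, had 393, 400.5 and 277 CPM in libraries labelled Rbfox2-deleted 1, 2 and 3, against 547, 507 and 543 CPM in controls 1, 2 and 3. It was separated as well, with a smaller difference (log2 fold change -0.56, SE 0.262, 0.43 when corrected for length, edgeR adjusted p = 0.573).

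**Figure D2:**
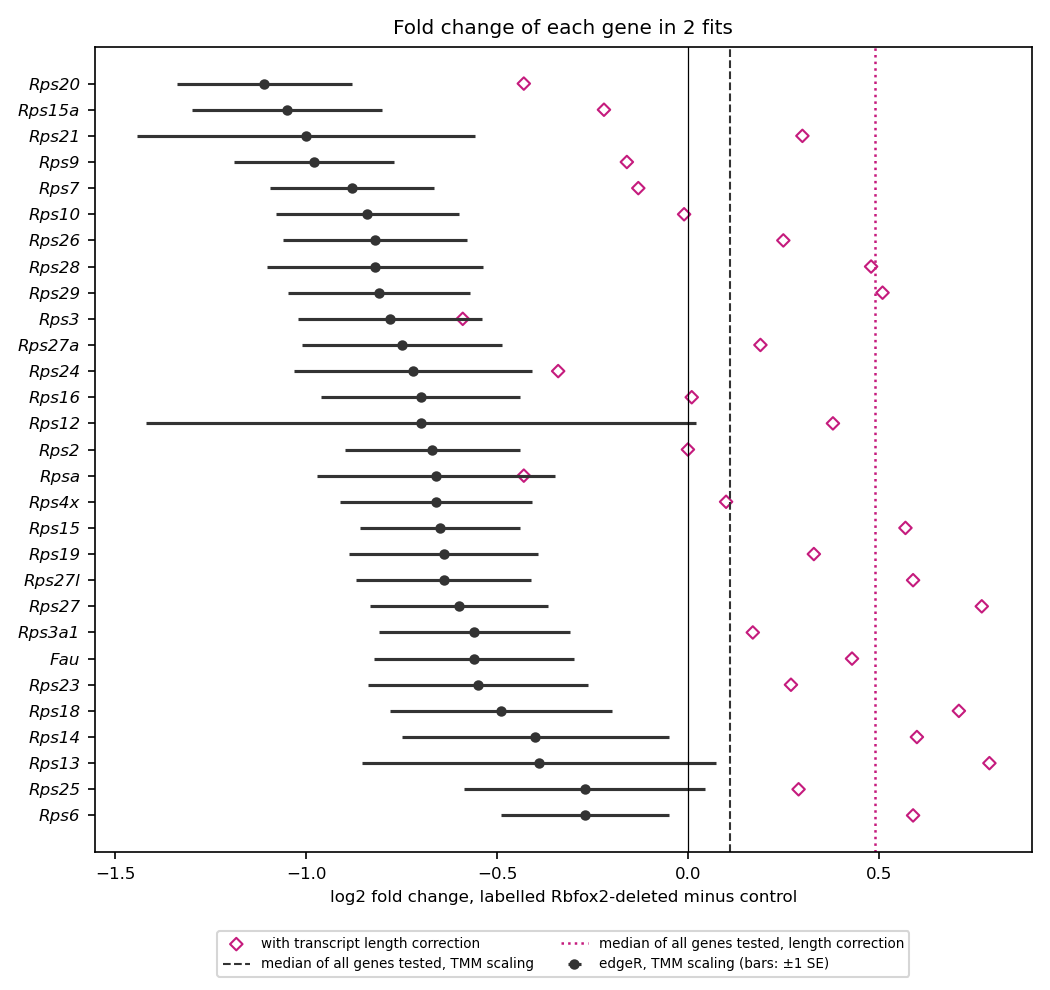
Log2 fold change of each gene, group labelled Rbfox2-deleted minus control (x axis), in the edgeR fit with TMM scaling (black, bars ±1 SE, 5 samples) and with a transcript length correction (pink diamonds). Vertical lines give the median of all genes tested in each fit, 0.11 and 0.49. All 29 black points lie below 0, from -1.11 for Rps20 to -0.27 for Rps6 and Rps25, while 8 of 29 diamonds do.

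Rps27 and Rps27l encode closely related proteins, and Rps27l is known as a p53 target. Rps27 (ENSMUSG00000090733, chromosome 3, 90212522 to 90213651, minus strand) had 447, 371 and 361 CPM in libraries labelled Rbfox2-deleted 1, 2 and 3, against 556, 632 and 559.6 CPM in controls 1, 2 and 3. Rps27l (ENSMUSG00000036781, chromosome 9, 66946086 to 66949516, plus strand) had 408, 351 and 400.1 CPM in libraries labelled Rbfox2-deleted 1, 2 and 3, against 533, 658 and 562 CPM in controls 1, 2 and 3. The paralogs differed between groups by a similar amount, -0.60 (SE 0.233, edgeR adjusted p = 0.482) and -0.64 (SE 0.229, edgeR adjusted p = 0.454) on the log2 scale, and 0.77 and 0.59 when corrected for length. Neither overlapped between groups. Per kilobase of the longest principal transcript, Rps27 had 1138 CPM in the group labelled Rbfox2-deleted and 1725 in control, and Rps27l 774 CPM in the group labelled Rbfox2-deleted and 1208 in control.

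The level of Rps27 itself is uncertain, since most reads of this family were counted to an intronless copy. Rps27rt (ENSMUSG00000050621, chromosome 9, 114982366 to 114982739, minus strand, 1 exon), chosen after its values were seen, held 864480 counts over the 6 libraries, against 125509 for Rps27, or 87.3% of both together. Rps27rt had 2412, 2209 and 2111 CPM in libraries labelled Rbfox2-deleted 1, 2 and 3, against 3913, 4776 and 4155 CPM in controls 1, 2 and 3 (log2 fold change -0.97, SE 0.213, edgeR adjusted p = 0.387). The sum of both was 2637 ± 199.7 CPM in the group labelled Rbfox2-deleted (SD, n = 3) and 5004 ± 571 CPM in control (SD, n = 2), a log2 ratio of the means of -0.92, beyond that of Rps27 alone. Rps12, a head protein, had 13.9, 32.4 and 18.6 CPM in libraries labelled Rbfox2-deleted 1, 2 and 3, against 37.9, 31.7 and 39.2 CPM in controls 1, 2 and 3 in its own row (log2 fold change -0.70, 0.38 when corrected for length). Its 8 named pseudogenes in the table together had 24.8, 50.3 and 38.8 CPM in libraries labelled Rbfox2-deleted 1, 2 and 3, against 83.5, 73.0 and 81.6 CPM in controls 1, 2 and 3. Of all reads of Rps12 and these copies, 67.3% were counted to the copies. With the copies added, every sample labelled Rbfox2-deleted lay below every control, which Rps12 alone did not show. For Rps19, the 1 named pseudogene in the table held 9.28% of the reads of both. For Rps4x, the related Rps4l held 22.8% of the reads of both, with 13.2% to 31.6% in libraries labelled Rbfox2-deleted and 20.6% to 23.2% in controls.

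**Figure D3:**
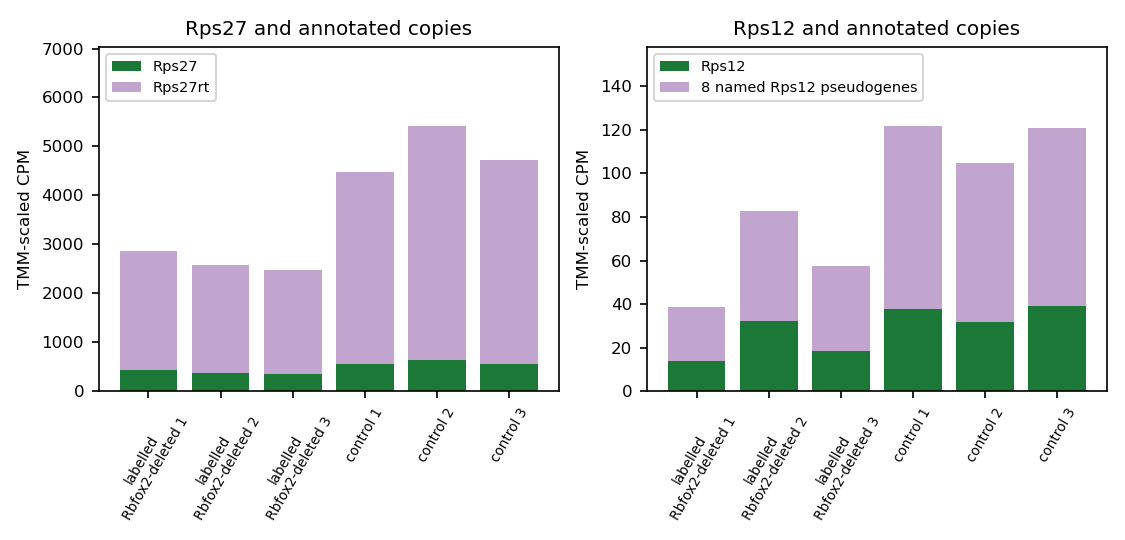
Stacked TMM-scaled CPM of Rps27 and the intronless Rps27rt (left) and of Rps12 and its 8 named pseudogenes (right) in each library, with libraries labelled Rbfox2-deleted left of the controls. The lilac part, counted to the copies, is the larger in every library, and the summed bars are lower in the 3 libraries labelled Rbfox2-deleted.

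Levels per kilobase differed widely between the genes. By reads counted to each gene itself, Rps14 was highest in control, at 4676 CPM per kilobase in the group labelled Rbfox2-deleted and 6154 in control, and it also led with the shortest principal transcript or all annotated exons as length. With the reads of Rps27rt added, Rps27 would stand at 7643 CPM per kilobase of its own transcript in the group labelled Rbfox2-deleted and 14505 in control, above Rps14. Rps15a was lowest, at 28.1 CPM per kilobase in the group labelled Rbfox2-deleted and 58.2 in control, by its longest principal transcript of 5179 bases. With the shortest, of 640 bases, it had 227 in the group labelled Rbfox2-deleted and 471 in control. Rps12 was then lowest, at 43.8 in the group labelled Rbfox2-deleted and 71.2 in control. The low per-length levels of Rps12 stand beside its high share of reads in copies.

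The proportions among the 29 genes were compared next, by the log2 CPM of each gene minus the mean over the 29 in the same sample, a value in which the scaling factors cancel. For 24 of the 29 genes the group means of this value differed by at most 0.3, and the SD of the differences over the genes was 0.21. Rps6 took a larger place in the libraries labelled Rbfox2-deleted, with 1.23, 1.31 and 1.29 in libraries labelled Rbfox2-deleted 1, 2 and 3, against 0.91 in summed controls 1 and 3 and 0.78 in control 2. Rps20 took a smaller one, with 0.31, 0.38 and 0.27 in libraries labelled Rbfox2-deleted 1, 2 and 3, against 0.78 in summed controls 1 and 3 and 0.68 in control 2. Rps15a had -1.53, -1.45 and -1.13 in libraries labelled Rbfox2-deleted 1, 2 and 3, against -1.0 in summed controls 1 and 3 and -1.03 in control 2. These 3 genes did not overlap between groups, Rps6 being higher and Rps20 and Rps15a lower in relation to the rest. Rps9 did not overlap either, at 1.03, 1.05 and 1.14 in libraries labelled Rbfox2-deleted 1, 2 and 3. Its value was 1.31 in summed controls 1 and 3 and 1.39 in control 2. Over all genes this value was not computed. In CPM, 17.2% of all genes lay lower and 14.9% higher without overlap, so such separation is common. Rps21 had -3.64, -3.00 and -2.87 in libraries labelled Rbfox2-deleted 1, 2 and 3, against -2.85 in summed controls 1 and 3 and -2.87 in control 2, so that library 3 labelled Rbfox2-deleted met control 2. Rps25 differed by 0.48, the most of any, but control 2 (0.87) was near the libraries labelled Rbfox2-deleted (0.85 to 0.98) and the summed controls 1 and 3 were at 0.00. No test of the proportions was run.

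**Figure D4:**
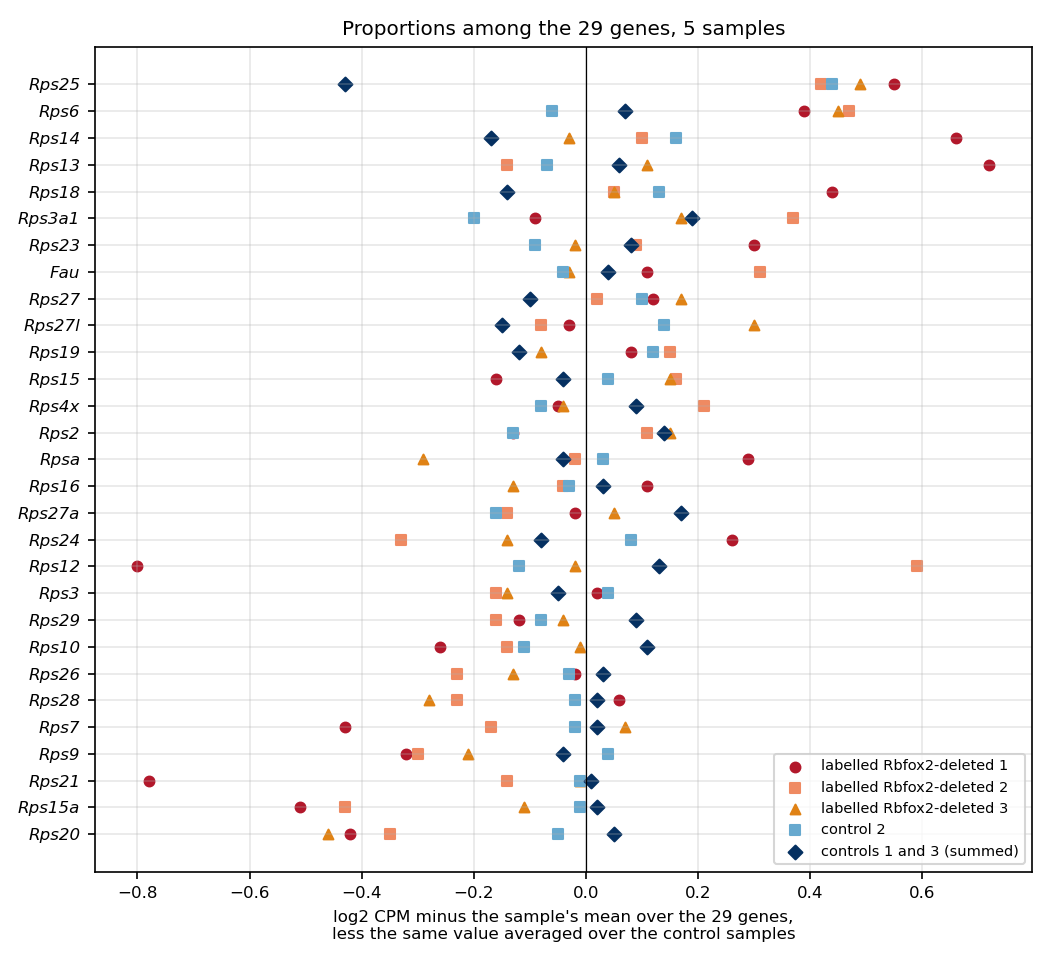
Log2 CPM of each gene minus the mean over the 29 genes in the same sample, less the control average of that value (x axis), in 3 samples labelled Rbfox2-deleted and 2 control samples (controls 1 and 3 summed). Rps6 points labelled Rbfox2-deleted lie right of both controls and those of Rps20, Rps15a and Rps9 left of them. Rps12, Rps25, Rps13 and Rps14 spread widest, with library 1 labelled Rbfox2-deleted at an end in each.

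Of the 48 large subunit genes tested, 46 had a log2 fold change below 0 (46.5% of all genes) with a median of -0.54, which was 0.28 with the length correction, and 19 were on the lower side (4.56% of all genes) and 0 on the other at an unadjusted p under 0.05 in edgeR's test. By edgeR adjusted over all genes and by DESeq2, 0 of them passed. Summed small subunit counts over summed large subunit counts were 0.653, 0.599 and 0.590 in libraries labelled Rbfox2-deleted 1, 2 and 3 and 0.645, 0.643 and 0.647 in controls 1, 2 and 3, so the groups overlapped. Rpl37, a large subunit protein, had 636, 637 and 613 CPM in libraries labelled Rbfox2-deleted 1, 2 and 3, against 1349, 1327 and 1392 CPM in controls 1, 2 and 3 (log2 fold change -1.10, SE 0.202, -0.22 when corrected for length, edgeR adjusted p = 0.387). Rpl14 had a log2 fold change of -0.93 (-0.2 when corrected for length).

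Of 45 factors that assemble and export the small subunit, 31 lay above control, where 53.5% of all genes did, with a median log2 fold change of 0.50 (0.82 with the length correction), and 3 were above and 0 below at an unadjusted p under 0.05 in edgeR's test, a share of the list near the 5.33% of all genes that were above. None passed the edgeR test over all genes, and DESeq2 called 1, Ltv1, as higher. Ltv1, an export and maturation factor that binds the head, had 80.9, 82.6 and 60.3 CPM in libraries labelled Rbfox2-deleted 1, 2 and 3, against 22.6, 19.0 and 22.9 CPM in controls 1, 2 and 3 (log2 fold change 1.84, SE 0.508, edgeR adjusted p = 0.387). All 3 values labelled Rbfox2-deleted were over those of the controls. Rcl1, a factor of the early processing complex, had a log2 fold change of 1.05 (SE 0.381, edgeR adjusted p = 0.458).

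Other genes of translation were divided. Over all genes tested, 46.5% lay below and 53.5% above control. At an unadjusted p under 0.05 in edgeR's test, 4.56% of all genes were lower and 5.33% higher. Of 18 translation factors and partners whose messages belong to the oligopyrimidine class or are often counted with it, 8 lay below and 10 above control, with a median of 0.22 (0.54 with the length correction), and at an unadjusted p under 0.05 in edgeR 2 were lower and 1 higher. The initiation factor subunit Eif3k had 631, 634 and 574 CPM in libraries labelled Rbfox2-deleted 1, 2 and 3, against 938, 937 and 918 CPM in controls 1, 2 and 3 (log2 fold change -0.60, SE 0.207, edgeR adjusted p = 0.434), and it turned to 0.34 with the length correction. The elongation factor subunit Eef1b2 had a log2 fold change of -0.82, and -0.85 with that correction. Of 28 initiation factors that act on the small subunit, 14 lay below and 14 above control (median 0.02, and 0.79 with the length correction), and 3 were lower and 6 higher at an unadjusted p under 0.05 in edgeR. The smallest p in that list were those of Eif4h, a helicase partner, at 1.69 and Eif1b, related to the start-codon selection factor, at -1.52. Neither passed edgeR's test over all genes (adjusted p = 0.387 each).

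Genes that signal to or from the subunit gave no call either. Of 17 genes of mTORC1, S6 kinase and LARP1, 11 lay above control (median 0.39, and 1.08 with the length correction), and the smallest p were those of the kinase gene Rps6ka1 at 1.77 (SE 0.593) and Eef2k at 1.04 (SE 0.586). Of 29 p53 targets tested, 17 lay below and 12 above control (median -0.53, and -0.21 with the length correction), and the smallest p were those of Ei24 at 1.76 (SE 0.539) and the nuclease gene Aen at 75.9 ± 16.4 CPM in the group labelled Rbfox2-deleted (SD, n = 3) and 38.0 ± 1.7 CPM in control (SD, n = 2). By edgeR adjusted over all genes and by DESeq2, 0 of either list passed. At an unadjusted p under 0.05 in edgeR, 1 of each was higher and 0 lower, beside 5.33% and 4.56% of all genes. Of all genes, 53.5% lay above control and 46.5% below.

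Markers of other cells moved with the groups in part. Summed plain CPM of 8 megakaryocyte genes was 44.1 to 279 in libraries labelled Rbfox2-deleted and 295 to 308 in controls, with Pf4 and Ppbp at 0 in library 1 labelled Rbfox2-deleted. That of 7 B cell genes was 139 to 195 in libraries labelled Rbfox2-deleted and 214 to 331 in controls, and Pax5 was at 0 in every library labelled Rbfox2-deleted and in controls 2 and 3. That of 7 T and NK cell genes was 113 to 168 in libraries labelled Rbfox2-deleted and 87.0 to 110.0 in controls, and Cd3d was at 0 in 4 of the 6 libraries. Long-term stem cell, erythroid, neutrophil, macrophage, progenitor and stromal lists overlapped between groups. The part of these cells and of depth in the small subunit values was not tested beyond the fits with single samples left out. Sex was entered as a covariate, but all female samples carried the Rbfox2-deleted label. That fit therefore compared library 2 labelled Rbfox2-deleted alone with the controls, and the part of sex was not tested.

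The sign of the median of the 29 genes changed with the correction for transcript length and with none of the scaling factors tried. That correction also moved the median of all genes, from 0.11 to 0.49. The change of sign therefore holds a shift common to all genes. The transcripts of the 29 genes had a median of 878 bases, against 2808 for all genes tested. Spearman's rho of the log2 fold change with transcript length was 0.03 across 12328 genes and -0.15 across the 29, as a description across genes of the same libraries. Under upper quartile scaling the median was -1.0, with all genes at -0.20. Relative to all genes the median was -0.78 with TMM scaling, -0.65 with a GC correction, and -0.22 with the length correction. Under that correction 21 of 29 genes lay below the median of all genes. With the length correction and a replicate block, 13 of 29 did, and the median relative to all genes was 0.04. With the length correction Rps3 (-0.59), Rps20 (-0.43), Rpsa (-0.43) and Rps24 (-0.34) had the lowest values and Rps13 (0.79) the highest.

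**Figure D5:**
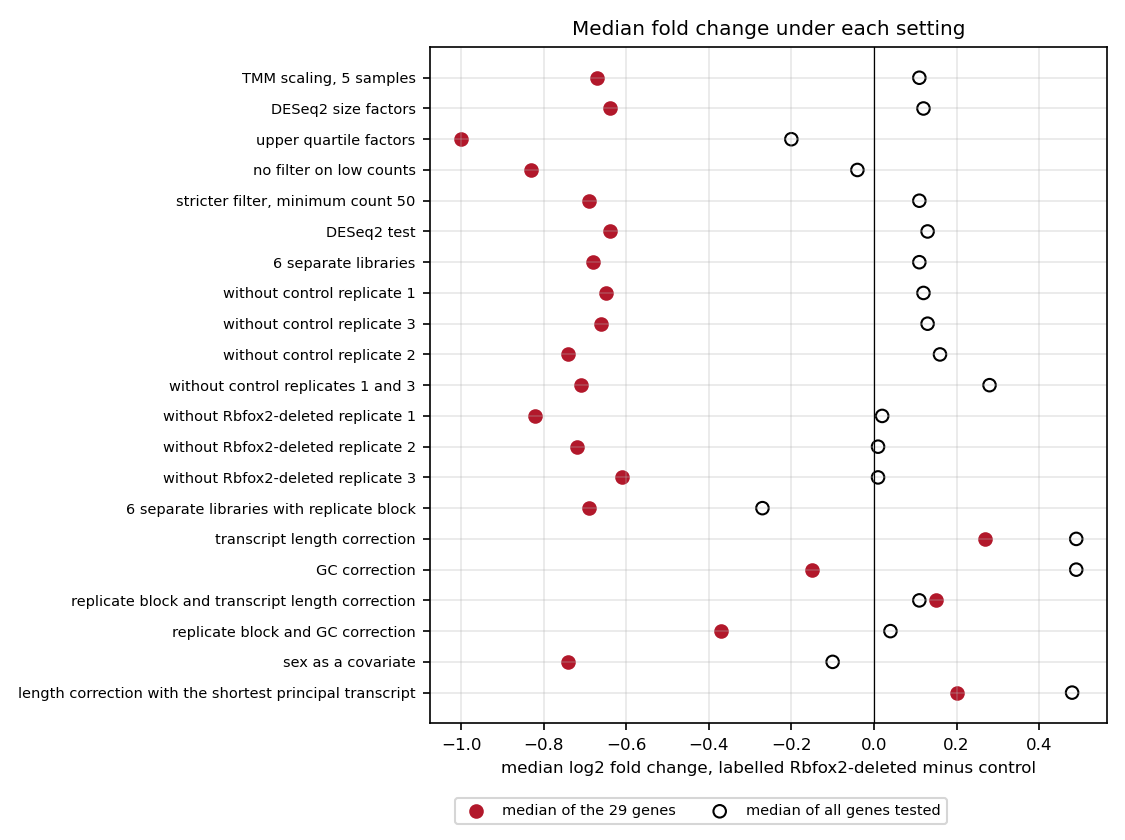
Median log2 fold change, group labelled Rbfox2-deleted minus control (x axis), of the 29 genes (filled) and of all genes tested (open) under each setting of the fit. The filled points lie between -1.0 and -0.15 except for the 3 fits with a transcript length correction, where they lie between 0.15 and 0.27.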

How the data were processed

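RNA of sorted bone marrow stem cells was sequenced in 6 libraries of 23474895 to 55151484 counts. The authors deposited unnormalized counts of reads per Ensembl gene. Trimmomatic 0.39, featureCounts, DESeq2 1.36.0 and build mm10 are named per the submitters' processing notes. Which aligner and annotation were used, and how strand and multi-mapping reads were handled, was not given in the sources used here. Here, 134 rows of 60 repeated identifiers were summed to give 22969 identifiers, and symbols, lengths (longest APPRIS principal transcript) and GC came from GENCODE M21 (mm10). For controls 1 and 3 the chi-square per degree of freedom over genes above 20 counts in a pair was 3.44, against 156 to 808 for other pairs, so they were summed and counted once.

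The test was edgeR 4.0.16's quasi-likelihood test under R 4.3.3 (glmQLFit and glmQLFTest on TMM-scaled counts, group the sole term, two-sided, after filterByExpr with a minimum count of 10 and total of 15), adjusted by Benjamini-Hochberg over 12350 genes at 0.05. SE is the fold change over the square root of F. CPM of controls 1 and 3 singly use the factor of their sum. P-values measure only the spread between these 5 samples, part of which may be technical. DESeq2 1.42.0 was run as an alternative, and the scripts were tested on simulated counts. The members and lists were chosen with earlier results of these data known. Values in every library are given for the 6 genes of smallest p, the 2 of fold change nearest 0, those highest and lowest per kilobase, Rps27, Rps27l, Rps27a and Fau, and 2 genes of smallest p are named per list. Those of Rps26, Rps21 and Rps13 were added after their values were seen. 1 B cell marker is not reported here. The alternatives were other scalings and filters, 6 separate libraries, samples left out, a replicate block, length and GC corrections (loess of the log ratio to the mean over samples, span 0.5) and sex.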

Additional observations from a re-analysis of the deposited data

How the results depend on the processing

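Under every alternative run, 0 of the 29 genes passed the adjusted threshold, and over all genes DESeq2 called 181 where edgeR called 0. All 29 genes lay below control in each fit except without control 2 (28, Rps25 above), with a transcript length correction (8), a GC correction (22), the replicate block with either correction (10 with length, 27 with GC) and the length correction with the shortest principal transcript (8), which was chosen after seeing the data. The number lower at an unadjusted p under 0.05 was 17 (4.56% of all genes). It was 9 with DESeq2 size factors (3.85%), 26 with upper quartile factors (8.8%), 24 without a filter (5.28%) and 23 with 6 separate libraries (7.1%). It was 5 with the DESeq2 test (3.41%) and 0 with any length or GC correction (1.67% to 2.44%). Leaving out samples gave 5 (library 2 labelled Rbfox2-deleted, or controls 1 and 3) to 25 (library 1 labelled Rbfox2-deleted), with 6 without control 2, 8 without Rbfox2-deleted 3 and 17 without control 1 or 3, beside 2.49% to 11.9% of all genes. In fits that leave 1 control sample, that sample is assumed to vary like the others. With sex as a covariate, library 2 labelled Rbfox2-deleted alone set the group difference, since the other libraries of that label were the female ones. The median of the 29 genes was -0.74 in that fit.

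The median of -0.67 lay between -0.82 and -0.61 with samples left out. It was -1.0 with upper quartile factors, 0.27 with the length correction (0.20 with the shortest transcript), -0.15 with the GC correction, 0.15 with the replicate block and length correction and -0.37 with the replicate block and GC correction. Relative to all genes it was -0.78, between -0.99 and -0.63 with samples left out, -0.22 with length (-0.28 with the shortest transcript) and, with the replicate block, -0.42 alone, 0.04 with length and -0.40 with GC. Deviations of same-numbered libraries from their group means had correlations of -0.0434, -0.0103 and 0.0487, and not every library correlated best with its own number. Controls 1 and 3 nearly coincide and control 2 then deviates opposite to both, so this check could hardly show pairing. The numbers were not taken as pairs, and whether they are was not settled. All fits with the replicate block took the 6 libraries as separate samples, so the nearly coinciding controls 1 and 3 entered them as independent. With the block alone 20 of 29 genes, and 5.46% of all genes, were lower at an unadjusted p under 0.05. The summed share differed by -0.86 percentage points, and by -0.94 without mitochondrially encoded genes. Upper quartile factors put 339 genes above and 1087 below control at an unadjusted p under 0.05, where TMM gave 658 and 563. The highest over lowest control CPM per kilobase was 105.7, 113.7 with the shortest transcript and 116.4 with all exons. The fewest counts of any of the 29 genes were 274, for Rps12 in library 1 labelled Rbfox2-deleted.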
